A study of Mesostigma viride with 16 samples.

Results

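Among the 24431 protein-coding genes listed for *Mesostigma viride*, a unicellular streptophyte alga, 16 had at least doubled transcript levels after cold exposure while staying near the untreated level under high light. Transcript levels are given as FPKM, fragment numbers scaled to the length of the transcript and to the size of the library, so that levels can be set side by side between genes. The 16 genes were selected on measured values. L is the log2 ratio of the mean of a condition to the mean of the 3 untreated libraries, with 0.1 FPKM added to both. A gene was taken if it had at least 1 FPKM in both Cold libraries, untreated libraries within 1.5-fold of each other, L(Cold) of at least 1 and L(High light) between -0.8 and 0.5. Genes in the study's own lists on cell division and cell wall, transcription factors, phytohormones, epigenetic regulation and photosynthesis were left out. Because cold, high light and the untreated libraries chose the genes, their values in these libraries are a description, and no test is given for them.

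All cultures were of the strain NIES-296 in medium C, 24 days old, and each treatment lasted 24 h. Darkness (23 °C, pH 7.5), high light (400 µmol photons per square metre and second, 23 °C, pH 7.5), cold (12 °C, pH 7.5), high temperature (32 °C, pH 7.5), low pH (pH 6.0, 23 °C) and high pH (pH 9.0, 23 °C) each had 2 biological replicates, and light was 50 µmol photons per square metre and second wherever not stated otherwise. Control 1 was untreated (23 °C, 50 µmol photons, pH 7.5) and has 1 library here, replicate 2. Control 2, in the same surroundings, received plain medium C in the volume used for the pH treatments, and has 2 libraries. By the study's methods, pH 6.0 was set with Tris-HCl and pH 9.0 with NaOH, so pH and these additions cannot be told apart. The 15 libraries held 53196062 to 117234526 reads, and 18899 to 20870 genes were above 0. The fragments behind each gene are not known, so the counting precision of a low FPKM value is not known either. The RNA came from whole cultures, so fewer cells holding a transcript and less of it per cell cannot be told apart, and FPKM gives a share of each library's RNA.

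Cold stiffens membranes and slows enzymes. In a photosynthetic cell it slows the use of absorbed light more than its capture, so that chilling and strong light both leave an excess of excitation energy, and their transcript responses are known to overlap in green algae and plants. In land plants, cold signals pass through calcium, CAMTA transcription factors and AP2/ERF proteins of the CBF type, while heat shock factors (HSF) drive the response to warmth and proteins with a cold shock domain (CSD) act as RNA chaperones. The selection left out the genes named in the study's lists given above. Of the 16 selected genes, 0 were in its list of functional terms specific to charophyte algae. Its lists of differentially expressed genes were not searched. No protein name or function is therefore given for the 16 genes, and they are called by their identifiers.

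Genes with a high value in cold and a value near the untreated level under high light were few. Of 10636 genes that passed the filters on level and on the untreated libraries, 477 had L(Cold) of at least 1. Under high light, 380 of these also had an L of at least 1, 80 lay between 0.5 and 1, 17 lay in the selected window and 0 lay under -0.8. In 195 of the 477 the high light value was at least as large as the cold value. The plot of the cold change against the high light change shows the 16 genes as a sparse fringe of one cloud rather than a separate group.

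**Figure D1:**
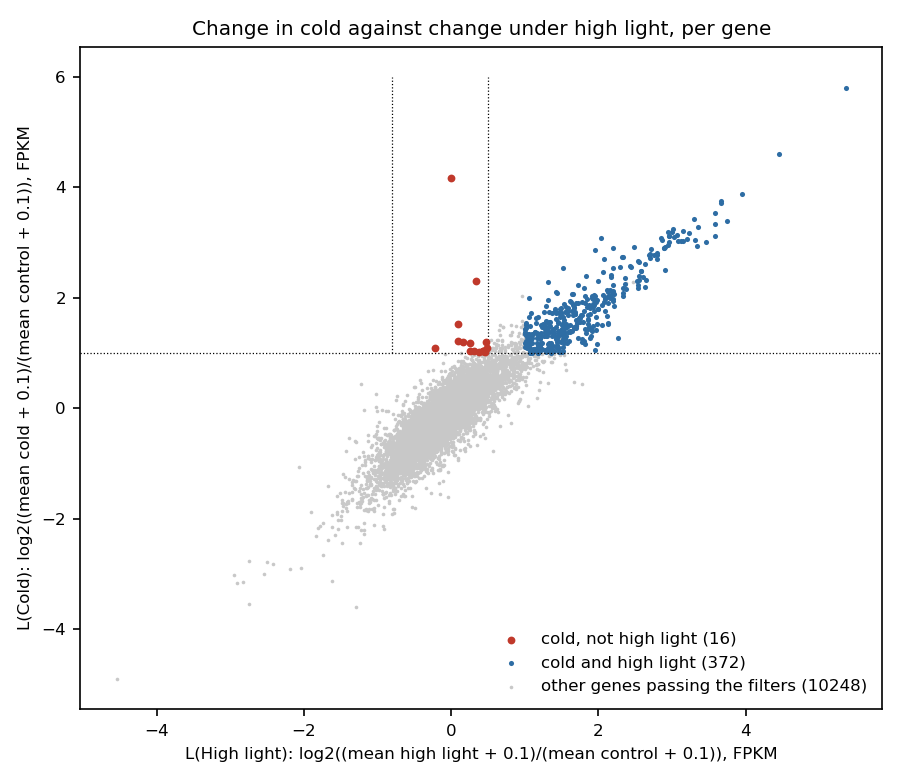
L(Cold), vertical axis, against L(High light), horizontal axis, both log2 ratios to the mean of the 3 untreated libraries, with 1 point per gene that passed the filters. Red points are the 16 selected genes, blue points the 372 genes with both values of at least 1, and dotted lines mark the limits of the selection; 13 of the selected genes lie under 1.3 on the vertical axis, and Mv06674-RA (4.17), Mv25798-RA (2.31) and Mv12302-RA (1.53) lie above it.

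Most of the 16 genes lay close to the threshold. L(Cold) ran from 1.01 to 4.17 with a median of 1.09, and 13 genes had less than 1.3. L(High light) ran from -0.21 to 0.49 with a median of 0.33, and it was above 0 in 14 genes, against a median of -0.13 over all genes that passed the filters. In all 16 genes both Cold libraries were above both High light libraries and above every untreated library. In 10 genes both High light libraries were also above every untreated library, and in 6 the High light and untreated libraries overlapped. The genes thus differed in how near to the untreated level they stayed under high light. These counts come from the libraries that chose the genes, and their shares over all genes that passed the filters were not computed.

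The values next to each limit show how narrow these limits were. Mv06634-RA was just inside the cold limit with 1.01, and Mv11953-RA just outside it with 0.98, at mean levels of 79.2 FPKM in cold, 56.4 FPKM under high light and 40.0 FPKM in untreated cells. At the upper high light limit Mv09758-RA was inside with 0.49 and Mv14638-RA outside with 0.51, at 931 FPKM in cold, 605 FPKM under high light and 425 FPKM untreated. At the lower limit Mv07622-RA came nearest with -0.21, and no gene was outside. A gene homologous to URGT1, a transporter of nucleotide sugars in plants, met all numeric limits but was left out because the cell wall list holds it. This gene, Mv07516-RA, had 1.46 and 1.97 FPKM in cold, 0.602 and 0.979 FPKM under high light, and 0.734, 0.596 and 0.775 FPKM in untreated cells.

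The membership depended on single libraries and on scaling. Without Cold replicate 1 the same limits gave 31 genes, 15 of them among the 16, and without Cold replicate 2 they gave 18 genes, 10 of them shared. Scaling the libraries to the median of the gene ratios gave 33 genes with 8 shared. Mv12302-RA, Mv11326-RA and Mv06674-RA were selected under all 11 alternatives of the selection. Mv22740-RA, Mv11365-RA and Mv10649-RA were selected under 10 of the 11, and Mv10413-RA and Mv25088-RA under 4.

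The abundant genes were 5 with a mean above 30 FPKM in cold. Mv22740-RA, the most abundant, had 884 and 857 FPKM in cold and 564 and 588 FPKM under high light, against 419, 416 and 430 FPKM in untreated cells. Mv15540-RA had 181 and 180.5 FPKM in cold and 109 and 112 FPKM under high light, against 81.6, 94.7 and 89.4 FPKM untreated. In both genes the Cold, High light and untreated libraries formed 3 ranges that did not overlap.

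Mv12302-RA stayed nearest to the untreated level among the abundant genes: it had 167 and 168 FPKM in cold, 63.7 and 60.2 FPKM under high light, and 49.8, 64.2 and 59.4 FPKM untreated, so that its High light libraries fell inside the untreated range. Its cold level was 2.90 times the untreated mean. Mv11365-RA was less even, with 75.6 and 119.6 FPKM in cold, 47.4 and 47.9 FPKM under high light, and 41.0, 43.7 and 43.1 FPKM untreated. Its Cold libraries were 1.58-fold apart, the widest gap among the 16 genes, and without Cold replicate 2 it was no longer selected. Mv09758-RA had 43.5 and 47.6 FPKM in cold, 32.1 and 27.3 FPKM under high light, and 24.4, 20.9 and 18.2 FPKM untreated.

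Mv11326-RA, the next in abundance, had 15.7 and 17.1 FPKM in cold, 7.18 and 10.1 FPKM under high light, and 8.33, 7.07 and 6.23 FPKM untreated, with High light and untreated libraries overlapping. Its cold level was 2.27 times the untreated mean. In 9 of the 16 genes the mean in cold was under 10 FPKM. The median over the 16 genes was 7.63 FPKM in cold and 3.44 FPKM untreated, against 50.0 FPKM in cold and 14.8 FPKM untreated for the 372 genes that had an L of at least 1 in both cold and high light. That difference was not tested.

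The 6 largest L(Cold) values belonged to Mv06674-RA, Mv25798-RA, Mv10649-RA and Mv22505-RA, which had under 10 FPKM in cold, and to Mv12302-RA (1.53) and Mv11365-RA (1.19) among the abundant genes. Mv06674-RA was listed at 1.69 and 1.71 FPKM in cold and at 0 under high light and in all 3 untreated libraries, and it was listed at 0 in 12 libraries in all. The one other library with a value was Darkness replicate 2, with 1.47 FPKM, while Darkness replicate 1 was listed at 0. Its L(Cold) of 4.17 rests on the added 0.1 FPKM and is no measure of size. It was also the only gene of the 16 that did not have at least 0.5 FPKM in at least 2 libraries other than Cold, a level the other 15 had.

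Mv25798-RA had the largest measurable ratio: 8.32 and 6.84 FPKM in cold and 1.75 and 1.99 FPKM under high light, against 1.14, 1.55 and 1.66 FPKM untreated. This was 5.22 times the untreated mean in cold, with L(Cold) of 2.31, and the highest library outside cold, High pH replicate 1, had 3.18 FPKM. Mv10649-RA had 1.1 and 1.41 FPKM in cold, 0.539 and 0.505 FPKM under high light, and 0.532, 0.482 and 0.430 FPKM untreated. Mv22505-RA had 1.45 and 1.93 FPKM in cold, 0.939 and 1.0 FPKM under high light, and 0.859, 0.561 and 0.604 FPKM untreated. These last genes were near the 1 FPKM that the selection asked for, and their Cold libraries were 1.28-fold and 1.33-fold apart.

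The remaining genes were low and near the threshold. Mv07622-RA had the lowest high light value, with 5.82 and 5.79 FPKM in cold and 2.08 and 2.51 FPKM under high light, against 2.15, 3.14 and 2.76 FPKM untreated. Mv10413-RA had 2.78 and 3.31 FPKM in cold, 1.91 and 2.15 FPKM under high light, and 1.49, 1.29 and 1.56 FPKM untreated. Its High light libraries were above the untreated ones, and those of Mv07622-RA were not.

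The last 4 genes had L(Cold) values of 1.01 to 1.03. Mv15505-RA had 10.4 and 9.79 FPKM in cold and 5.53 and 6.14 FPKM under high light, against 4.35, 5.72 and 4.56 FPKM untreated. Mv12607-RA had 7.37 and 7.98 FPKM in cold and 4.85 and 5.2 FPKM under high light, against 4.0, 3.78 and 3.34 FPKM untreated. In both genes, as in all 14 with L(High light) above 0, the mean under high light lay between those of cold and of the untreated cells. Mv06634-RA had 6.33 and 6.65 FPKM in cold and 4.0 and 4.31 FPKM under high light, against 3.01, 3.11 and 3.39 FPKM untreated. Mv25088-RA had 1.01 and 1.09 FPKM in cold and 0.634 and 0.682 FPKM under high light, against 0.352, 0.462 and 0.571 FPKM untreated, and was the lowest of the 16 genes in cold.

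**Figure D2:**
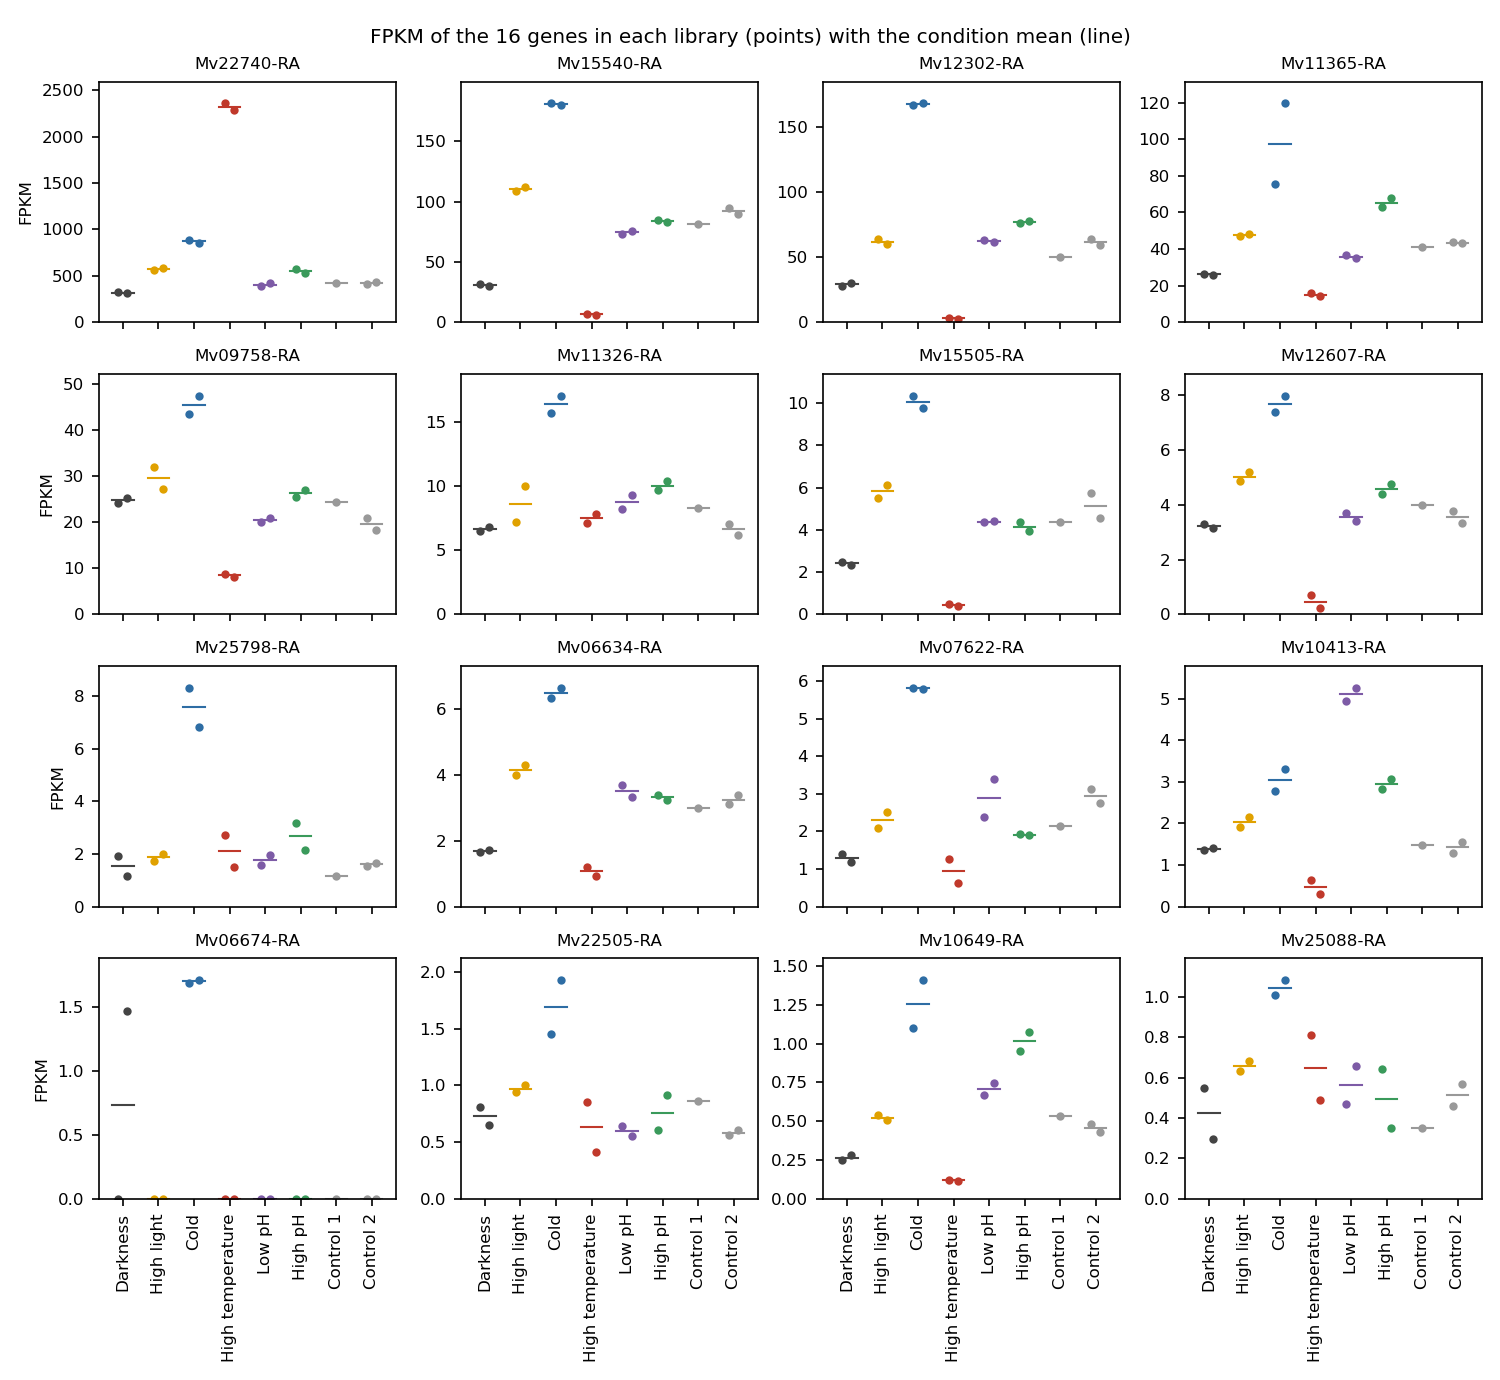
FPKM of each of the 16 genes (vertical axes, linear and starting at 0) in every library, with 1 panel per gene, 1 point per library and a line at the mean of the condition. Cold is highest in 14 panels; high temperature is highest for Mv22740-RA and low pH for Mv10413-RA.

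The conditions that the selection did not use ask whether the genes were higher in cold alone among the tested treatments. In 14 of the 16 genes cold had the highest mean of the 8 conditions, and in the same 14 both Cold libraries were above all 8 libraries of darkness, high temperature, low pH and high pH. The exceptions were Mv22740-RA, which was highest at high temperature, and Mv10413-RA, which was highest at low pH. Since cold values chose the genes, this order is a description, and its share over all genes was not computed. It stands on the deposited scale. Scaling to the median of gene ratios divides the High temperature libraries by 0.595 and 0.513 and the Cold libraries by 1.02 and 1.05, which raises high temperature relative to cold. The order was not recomputed on that scale. High temperature gave the lowest mean in 10 genes, and darkness in 1, Mv22740-RA. These lowest means also stand on the deposited scale, and the share of all genes lowest at high temperature was not computed. By a different measure, 55.3% of all genes tested were called lower at high temperature against Control 1.

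Changes in these other conditions were tested with limma on log2(FPKM + 0.1) across 14297 genes, with Benjamini-Hochberg adjustment over all of them, and a call needed an adjusted p no larger than 0.01 together with a change of 1 or more on the log2 scale in either direction. Darkness and high temperature were set against Control 1, and low pH and high pH against Control 2, whose libraries the selection also used. For high temperature against darkness and high pH against low pH, the difference of means uses no library of the selection. The spread behind their standard errors and p-values comes from all libraries, those of the selection included. In the 16 genes the untreated libraries were chosen to lie within 1.5-fold, so these p-values are not independent of the selection. The untreated mean is also the denominator of L, so fold changes against Control 1 or Control 2 are not independent of it either. Shares and medians of the 16 genes set beside those of all genes in these comparisons carry that limit. All 16 genes reached the minimum of 0.5 FPKM in 2 libraries, but Mv06674-RA did so only through cold, and its values at 0 give it no information on the other treatments. Without it the calls of the other 15 genes counted the same in all 6 comparisons, and their median log2 fold changes were -0.39 in darkness and -1.43 at high temperature, both against Control 1, 0.02 in acid and 0.35 in alkaline medium, both against Control 2, -0.74 at high temperature against darkness and 0.29 at high pH against low pH.

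High temperature gave by far the most calls. Against Control 1, 10 of the 16 genes were called lower (62.5%) and 1 higher (6.25%), beside a background of 55.3% of all genes tested called lower and 6.83% called higher. Their median log2 fold change was -1.42, against -1.29 over all genes. The share of lower calls thus lay near that of all genes tested. Here and below, those genes needed only 0.5 FPKM in 2 libraries, while the 16 genes also met the stricter filters of the selection. When the libraries were scaled to the median of the gene ratios, 4 genes were called lower and 4 higher (background 29.8% and 20.5%), and quantile normalization gave 3 lower and 5 higher (background 23.1% and 21.8%). These scalings moved the median of all genes to -0.18 and -0.01 from -1.29.

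Mv12302-RA had the deepest fall. It had 2.94 and 2.79 FPKM at high temperature and 49.8 FPKM in Control 1, a log2 fold change of -4.08 (SE 0.07, adjusted p 4.57e-12). Mv15540-RA had 6.79 and 6.20 FPKM at high temperature and 81.6 FPKM in Control 1, with a log2 fold change of -3.63 (SE 0.07, adjusted p 4.57e-12). Both stayed called under all 21 alternatives, with values no nearer to 0 than -2.76 for Mv12302-RA and -2.47 for Mv15540-RA.

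Mv15505-RA had 0.50 and 0.403 FPKM at high temperature and 4.35 FPKM in Control 1, a log2 fold change of -3.02 (SE 0.16, adjusted p 1.04e-08), which stayed called under all 21 alternatives and was nearest to 0 with quantile normalization, at -1.29. Mv12607-RA had 0.696 and 0.235 FPKM at high temperature and 4.0 FPKM in Control 1, with -2.99 (SE 0.36, adjusted p 1.08e-05), and lost its call only with quantile normalization, at -1.32. In each of these genes both High temperature libraries were under every library of darkness, cold and the untreated cells.

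The other 6 genes called lower had log2 fold changes between the -1.17 of Mv07622-RA and the -1.54 of Mv10413-RA and Mv10649-RA, near the median of all genes. All 6 calls were lost under each of the scalings, and Mv06634-RA, Mv07622-RA and Mv10413-RA changed sign with quantile normalization. With 1 FPKM added, Mv06634-RA, Mv07622-RA, Mv10413-RA and Mv10649-RA fell short of the fold required. The call of Mv07622-RA was also lost without High temperature replicate 2, at -0.72, and with no minimum on the values, which left 9 genes called lower.

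Mv22740-RA went the other way. It had 2360 and 2284 FPKM at high temperature and 419 FPKM in Control 1, a log2 fold change of 2.47 (SE 0.06, adjusted p 4.36e-11), or 5.54-fold. The libraries at high temperature were also above both Cold libraries, and the call held under all 21 alternatives, with values of 2.02 to 3.64. This gene had its highest level in warmth and its second highest in cold. Mv25798-RA had 2.72 and 1.51 FPKM at high temperature and 1.14 FPKM in Control 1, with 0.78, and was called higher only under both scalings and without High temperature replicate 2, at 1.18, which made 2 genes called higher.

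In high temperature against darkness the difference of means rests on libraries outside the selection, while the p-values use the spread of all libraries. It shares the High temperature libraries with the comparison above. Of the 16 genes, 6 were called lower (37.5%) and 1 higher, beside a background of 55% lower and 6.73% higher, and the median was -0.76 against -1.24 over all genes. Scaling to the median of gene ratios gave 4 lower and 4 higher (background 28% and 20.1%), and quantile normalization 2 lower and 7 higher (background 22.6% and 19.9%). Mv12302-RA, at 2.94 and 2.79 FPKM in warmth and 27.8 and 30.3 FPKM in darkness, had -3.30 (SE 0.06, adjusted p 2.82e-12). Mv12607-RA had -2.68 (SE 0.29, adjusted p 4.28e-06) and lost the call with quantile normalization, at -1.14. Mv22740-RA was again the one called higher, at 2.86 (SE 0.05, adjusted p 2.82e-12), or 7.26-fold, with 324 and 315 FPKM in darkness.

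Darkness gave 1 call. Mv15540-RA was lower, with 31.3 and 30.3 FPKM in darkness and 81.6 FPKM in Control 1, a log2 fold change of -1.40 (SE 0.07, adjusted p 1.11e-07), and this call held under all 21 alternatives. The background was 4.02% of genes called lower and 1.13% called higher. By limma, 0 of the 16 genes were called higher, and 0 had an unadjusted p under 0.05 in that direction (11.5% of all genes did), while 7 of 16 had one for a lower level (26.5% of all genes). Without Darkness replicate 1, 1 gene was called higher, Mv06674-RA at 3.97, which rests on the single library with a value. The median over the 16 genes was -0.35 in darkness, against -0.10 over all genes. Mv12302-RA (-0.78), Mv06634-RA (-0.80) and Mv15505-RA (-0.83) had adjusted p of 1.86e-05, 0.00282 and 0.00292 by limma but stayed under the fold required.

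Each pH treatment gave 1 call against Control 2. At low pH, 1 of the 16 was called higher and 0 lower, beside 0.664% higher and 0.902% lower over all genes. By limma, 3 of the 16 had an unadjusted p under 0.05 for a higher level (13.7% of all genes). For a lower level 1 of the 16 had one (17.2% of all genes). Mv10413-RA was the called gene, with 4.95 and 5.26 FPKM at low pH and 1.29 and 1.56 FPKM in Control 2, a log2 fold change of 1.78 (SE 0.24, adjusted p 0.000403), or 3.43-fold, and the call held under all 22 alternatives. At low pH it was above its own Cold libraries, so the low pH treatment gave its highest level. The other 15 genes had both Low pH libraries under both Cold libraries, a description of genes chosen for high cold values. Its share over all genes was not computed.

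At high pH, 1 gene was called higher and 0 lower, beside a background of 0.79% higher and 1.46% lower; 8 of the 16 by limma had an unadjusted p under 0.05 for a higher level (11.9% of all genes) and 3 for a lower one (24.9% of all genes). Mv10649-RA had 0.954 and 1.07 FPKM at high pH and 0.482 and 0.430 FPKM in Control 2, a log2 fold change of 1.0 (SE 0.21, adjusted p 0.00466). It stood at the threshold and lost the call without either High pH library (1.08 and 0.93), without either Control 2 library (1.07 and 0.93), with 1 FPKM added (0.47) and with all untreated libraries as the reference (0.94). Mv10413-RA had 2.82 and 3.07 FPKM at high pH, with a log2 fold change of 1.0 and an adjusted p of 0.0110 by limma. It was called under both scalings and without either High temperature library, which made 2 genes called higher. The median was 0.33 over the 16 genes and -0.10 over all genes.

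For high pH against low pH, limma called 0 of the 16 genes higher and 0 lower (background 0.322% and 0.483%), with an unadjusted p under 0.05 in 6 for a higher level (7.9% of all genes) and in 1 for a lower level (14.9% of all genes). The largest difference was 0.87 for Mv11365-RA, with 63.1 and 67.6 FPKM at high pH and 36.6 and 34.8 FPKM at low pH (SE 0.15, adjusted p 0.00501). Its High pH libraries came close to its lower Cold library of 75.6 FPKM.

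**Figure D3:**
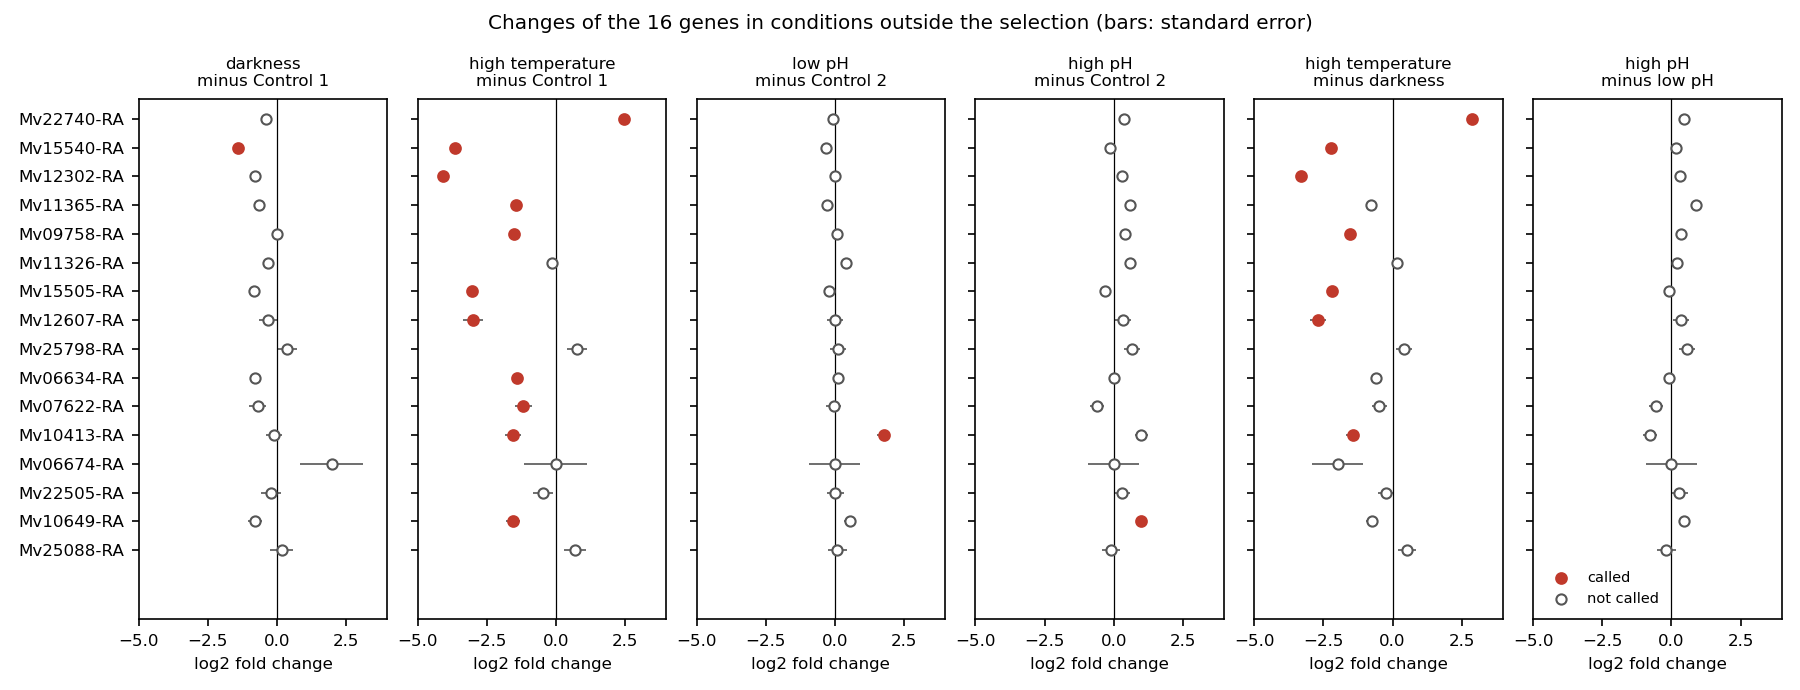
Log2 fold change of each of the 16 genes (horizontal axes) in the 6 comparisons that do not include cold or high light, with bars for the standard error. Filled points are called; calls cluster in the high temperature panels, where 10 genes are lower and Mv22740-RA is higher than Control 1.

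The 16 genes were set beside the 372 genes that had an L of at least 1 in both cold and high light under the same filters, and the sets lay furthest apart at high temperature. Against Control 1 the median log2 fold change at high temperature was -1.42 for the 16 genes and 1.07 for the 372, of which 51.9% were called higher and 6.45% lower. Scaling to the median of gene ratios gave medians of -0.28 for the 16 and 2.24 for the 372, and quantile normalization gave 0.25 for the 16 and 1.72 for the 372. Against darkness the medians were -0.76 for the 16 and 1.60 for the 372, of which 65.3% were called higher and 3.23% lower. On the deposited scale Mv22740-RA was the one gene among the 16 called higher in warmth, while the scalings gave 4 and 5 such genes against Control 1. In darkness the medians were -0.35 for the 16 and -0.52 for the 372, of which 17.2% were called lower, and at high pH they were 0.33 for the 16 and 0.26 for the 372. No test was made of the 16 genes against the 372, because the same libraries chose both sets.

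**Figure D4:**
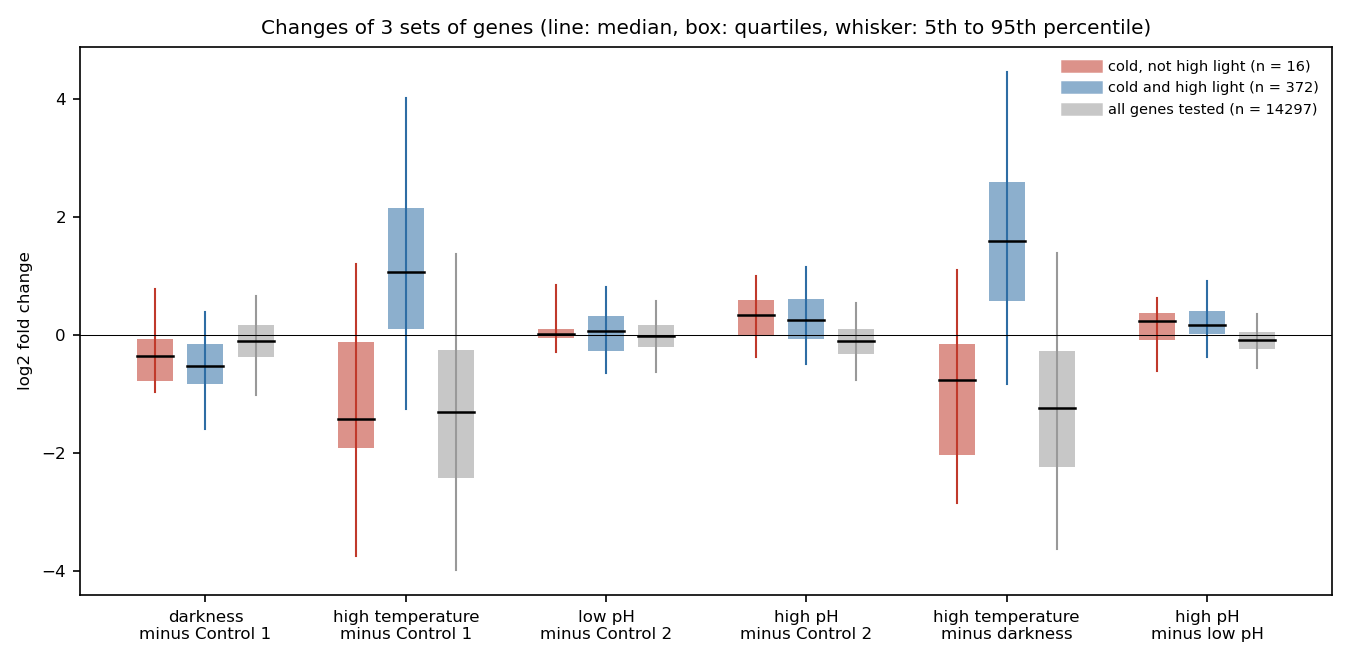
Log2 fold change (vertical axis) of the 16 genes selected for cold and not high light (red), the 372 genes raised in both (blue) and all 14297 genes tested (grey) in the 6 comparisons, with the median as a line, quartiles as a box and the 5th to 95th percentile as a whisker. At high temperature against Control 1 the red median is -1.42, the blue 1.07 and the grey -1.29; with scaling to the median of gene ratios the red and grey medians are -0.28 and -0.18.

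Genes tied to temperature responses by family or annotated term alone were examined as a list of 18, fixed by annotation and called regulators here. It held 9 AP2/ERF, 4 HSF and 2 CAMTA transcription factors and 1 CSD gene. The other genes were annotated with response to cold (Mv09805-RA) and heat acclimation (Mv17255-RA). Their roles in this alga were not tested, and the list does not separate the CBF type within AP2/ERF. Of the 18 genes, 17 were tested, and the CSD gene was below the minimum. In cold against Control 1, 3 were called lower and 0 higher, beside a background of 8.28% lower and 3.76% higher; 2 by limma had an unadjusted p under 0.05 for a higher level (16.1% of all genes). Under high light against Control 1, 2 were called lower and 0 higher (background 2.26% and 3.55%), with 1 by limma at an unadjusted p under 0.05 for a higher level (13.5% of all genes).

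Mv09805-RA, annotated with response to cold, had 35.3 and 35.4 FPKM in cold and 40.2 and 41.1 FPKM under high light, against 82.7 FPKM in Control 1 and 71.2 and 70.9 FPKM in Control 2. Its log2 fold change was -1.22 in cold (SE 0.08, adjusted p 3.48e-07) and -1.02 under high light (adjusted p 1.95e-06), so that it was lower in both. Scaling to the median of gene ratios ended both calls, at -0.95 and -0.87, and taking all untreated libraries as the reference ended that for high light, at -0.88. The AP2/ERF gene Mv03756-RA had 4.75 and 5.42 FPKM in cold and 6.34 and 6.12 FPKM under high light, against 13.4 FPKM in Control 1, with -1.38 (SE 0.10, adjusted p 1.02e-06) in cold and -1.09 (adjusted p 9.69e-06) under high light, the high light call being lost with 1 FPKM added (-0.99) and with scaling to the median of gene ratios (-0.94).

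The AP2/ERF gene Mv13803-RA, by far the most abundant of the list, had 1338 and 1317 FPKM in cold and 2223 and 2197 FPKM under high light, against 2719 FPKM in Control 1. Its log2 fold change was -1.03 in cold (SE 0.05, adjusted p 2.17e-08) and -0.30 under high light, where it was not called. Its cold call stood at the threshold and was lost under both scalings. Another AP2/ERF gene, Mv14696-RA, chosen for mention after its values were seen, had 1.13 and 0.911 FPKM in cold and 0.324 FPKM in Control 1, with 1.40 and an adjusted p of 0.0172 by limma, and it was called higher without Darkness replicate 1, without Darkness replicate 2 and under both scalings, each time as the 1 gene called higher. No HSF or CAMTA gene was called in either comparison. The HSF gene Mv19848-RA, also mentioned after its values were seen, had 0.45 in cold and 0.42 under high light. Its adjusted p were 0.00119 and 0.00296 by limma, but it stayed under the fold required. The other HSF genes had -0.12 to 0.09 in cold and -0.35 to -0.16 under high light.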

How the data were processed

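RNA-seq of polyadenylated RNA was analysed in 15 libraries, grouped by their labels. According to the study's methods, the authors aligned stranded paired-end reads to their genome assembly (HISAT2 2.1.0) and computed values with Cufflinks, whose version is not given in the sources used here. The deposited values are FPKM per gene, with no counts, so methods that need counts were not run. Values were transformed to log2(FPKM + 0.1), which makes changes of low genes smaller than their ratios. With R 4.3.3, limma 3.58.1 (variance trend) used all libraries and a mean for each condition, leaving 7 residual degrees of freedom, on the 14297 genes that reached 0.5 FPKM in 2 or more libraries. Control 1, with 1 library, borrows its spread from the other conditions, and the test was two-sided. The procedure was run on simulated data with independent noise and added changes larger than the fold required. Changes near that fold and differences in library scaling were not simulated, so the simulation does not bear on them. Replicates are biological by the study's account, and p-values measure the spread between these libraries. The 16 genes and the gene lists were chosen with earlier results of these data known.

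Named were the 6 genes with the highest cold level, the 6 with the largest L(Cold), the 2 most changed in each direction among the called genes of each comparison, genes next to a limit, the gene left out for its list, and called regulators; the remaining selected genes were named in addition to account for all 16. Alternatives were other pseudocounts (1 and 0.01), no minimum on the values, scaling by the median of gene ratios, quantile normalization, all untreated libraries as the reference, the replicate number as a block, and leaving out each library in turn.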

Additional observations from a re-analysis of the deposited data

How the results depend on the processing

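The number of selected genes, 16, became 10 with 1 FPKM added and 33 with scaling by the median of gene ratios, and ran from 12 to 31 when a library was left out. With 1 FPKM added, 6 of them were called lower at high temperature against Control 1, 0 higher at high pH, and 1 regulator lower under high light. With scaling by the median of gene ratios, 4 were called lower and 4 higher at high temperature against Control 1, 4 higher at high temperature against darkness and 2 higher at high pH, and 1 regulator was called higher and 1 lower in cold and 0 lower under high light. With quantile normalization the counts were 3 lower and 5 higher at high temperature against Control 1, 2 lower and 7 higher against darkness, 2 higher at high pH and 1 regulator higher in cold. With all untreated libraries as the reference, 0 were called higher at high pH and 1 regulator lower under high light. Leaving out a library gave 1 to 2 called higher at high temperature against Control 1, 0 to 2 at high pH and 0 to 1 in darkness, and 0 to 1 regulators higher in cold.

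Reversed values at high temperature against Control 1 were 1.01 and 1.04 for Mv11326-RA (ratio scaling and quantile normalization) and, with quantile normalization, 0.65 for Mv06634-RA, 0.87 for Mv07622-RA, 0.26 for Mv10413-RA and 1.41 for Mv22505-RA. Against darkness, quantile normalization gave 1.42 for Mv06634-RA, 1.53 for Mv07622-RA, 0.27 for Mv10413-RA and 1.64 for Mv22505-RA. Their cause was not tested.

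Replicate numbers did not pair the libraries: over 21 pairs of conditions the correlation of same-numbered deviations ran from -0.08 to 0.07. With the replicate block, 10 genes were called lower and 1 higher at high temperature against Control 1, 6 lower and 1 higher against darkness, 1 lower in darkness, 1 higher at low pH and 1 higher at high pH. Limits are 2 libraries per treatment, 1 library of Control 1, unknown fragment numbers per gene, and low levels in most of the 16 genes.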
